A study of Mus musculus with 6 samples.

Results

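The phosphate and pyrophosphate mineralization genes are 10 genes chosen by name for their known roles in setting phosphate and pyrophosphate around bone mineral. They are Alpl, Phospho1, Smpd3, Enpp1, Ank, Slc20a1, Slc20a2, Phex, Mgp and Fam20c. All 10 were found among the 29616 genes listed. The rule that names them uses no measured value, but they were chosen with earlier results of these data known. RNA sequencing compared 3 control libraries with 3 from mice treated with the synthetic glucocorticoid dexamethasone. For both groups the labels give the strain C57BL/6 and no transgene, treatment began at 8 weeks of age per the study's methods, and the dexamethasone dose was 0.08 µg/g each day over 4 weeks. The labels name the other arm only as control. Legends of other figures in the study name saline, but the legend that covers the sequenced cells does not. For its PCR on Osteocalcin-positive cells the study speaks of non-treated controls. The labelled material was bone cells, which per the study's methods were Osteocalcin-positive cells sorted from bones after the marrow was removed. Each library is described as a biological replicate, but whether it came from 1 mouse or several is not given in the sources used here, so the p-values measure the spread between these libraries.

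Bone mineral forms when phosphate joins calcium on a collagen matrix, and inorganic pyrophosphate blocks the growth of its crystals. ENPP1 makes pyrophosphate from extracellular ATP, ANK carries it or its precursor out of the cell, and tissue-nonspecific alkaline phosphatase, encoded by Alpl, splits it into phosphate. PHOSPHO1 and SMPD3 supply phosphate from membrane lipids, SLC20A1 and SLC20A2 bring phosphate into cells, and PHEX, MGP and FAM20C act on or within the matrix.

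The libraries held 72596611 to 89910728 reads, and the deposited values were read counts divided by the size factor of their library, termed normalized counts from here on. Every value was a whole multiple of 1 read, so the reads behind each value were recovered. Replicates differed by more than sampling noise, since chi-square divided by its degrees of freedom was 4.43 to 41.2 within groups. Log2 fold changes were taken as dexamethasone minus control on log2 of the normalized count + 1 and tested with limma over 17442 genes, which understates the change of genes with few reads. A gene was called higher or lower where its adjusted p was under 0.05 and its log2 fold change reached 1 in size. By that rule 22.3% of the tested genes were called, 11.7% higher and 10.6% lower with dexamethasone, while 72.5% passed on adjusted p alone. All 7 listed osteoblast markers were called lower, although Col1a2 was just short of the limit at -0.995 after quantile normalization. Spp1, whose product osteopontin the study counts as an osteogenic marker, was held in another list and rose by 5.25 on the log2 scale. In other cells, labelled through a Col1a1 transgene, the study reported the opposite, a decrease of osteopontin after dexamethasone. Bglap, which encodes Osteocalcin, the protein used for the sort, fell from 107 ± 12.9 to 12.2 ± 2.80 normalized counts (SD, n = 3 each). Whether other genes share the sequence of Bglap, which would affect its count, was not checked. Among the osteocyte markers, Sost and Fgf23 were not in the table, and of the 4 tested Dmp1 was called higher and Irx5 lower.

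Of the 10 genes, 6 were called higher, 1 was called lower and 3 were not called. The median log2 fold change of the 10 was 1.63, against 0.00 over all tested genes. The control and dexamethasone libraries did not overlap for 9 of the 10, while 74.7% of all tested genes had groups that did not overlap. Alpl was the one called lower. Enpp1, Ank, Slc20a1, Slc20a2, Mgp and Fam20c were the 6 called higher.

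**Figure D1:**
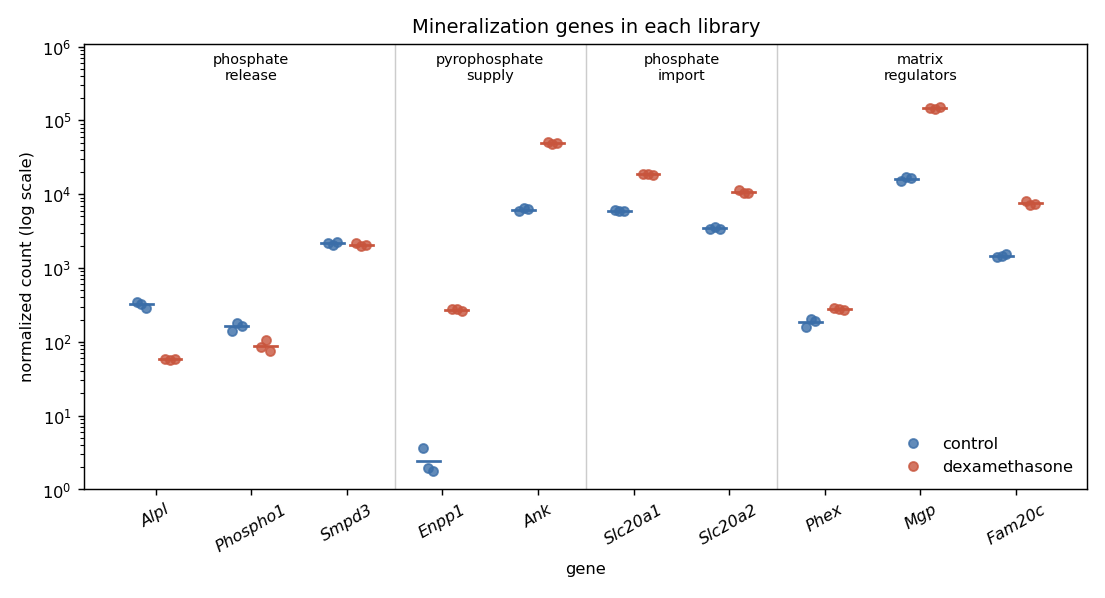
Normalized counts of the 10 genes in each of the 3 control and 3 dexamethasone libraries, on a log axis, with points for libraries and short lines for group means. Enpp1 lies between 1.76 and 3.67 in the controls and between 260.5 and 279 with dexamethasone, whereas the points of Smpd3 overlap.

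Alpl encodes the phosphatase that removes pyrophosphate at the cell surface. It had 346, 327 and 290.0 normalized counts in control replicates 1 to 3 and 58.2, 56.7 and 58.1 in dexamethasone replicates 1 to 3. Every dexamethasone library lay below every control library. Alpl fell from 321 ± 28.5 to 57.7 ± 0.856 (SD, n = 3 each), 5.57-fold lower, with a log2 fold change of -2.45 (standard error 0.127, 95% interval -2.71 to -2.19, adjusted p by limma = 6.67e-15). Only 1.53% of the tested genes had a lower fold change. In bulk libraries fewer cells of a type and less RNA per cell cannot be told apart. The listed osteoblast markers moved down with Alpl, whereas Spp1 moved up. Col1a1 fell by 1.88, Sp7 by 1.86 and Runx2 by 1.75 on the log2 scale (adjusted p by limma = 1.24e-18, 1.59e-21 and 2.42e-22), and their part in the fall of Alpl was not tested. The related intestinal and germ-cell type phosphatase genes Alpi, Akp3 and Alppl2 summed to 0.879 to 1.96 normalized counts in the control libraries and 2.33 to 3.27 in the dexamethasone libraries, too few to be tested.

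PHOSPHO1 releases phosphate from phosphocholine and phosphoethanolamine inside matrix vesicles. Phospho1 had 141, 182 and 163 normalized counts in the control libraries and 83.9, 106 and 75.6 with dexamethasone. The groups did not overlap, and the means were 162 ± 20.3 and 88.4 ± 15.6 (SD, n = 3 each). The log2 fold change of -0.87 (standard error 0.150, 95% interval -1.18 to -0.56, adjusted p by limma = 1.32e-05) was below zero but short of the size needed for a call. Without dexamethasone replicate 2 it reached -1.01 (adjusted p by limma = 8.66e-07) and would have been called. The count of Phospho1 is uncertain, because 89.6% of its exon bases in the GENCODE M21 annotation are shared with Zfp652 on the same strand and 84.2% with Abi3 on the other strand. The strand setting of the count is not given in the sources used here.

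SMPD3, a neutral sphingomyelinase, cuts sphingomyelin into ceramide and phosphocholine, the substrate of PHOSPHO1. Smpd3 had 2179, 2048 and 2254 normalized counts in the control libraries and 2197, 2014 and 2028 with dexamethasone, so the groups overlapped. Its log2 fold change was -0.05 (standard error 0.0478, adjusted p by limma = 0.309), with a 95% interval of -0.15 to 0.04. Its adjusted p was 0.00267 when libraries were scaled to the same total and 0.000528 after quantile normalization, where the fold changes were -0.17 and -0.20. The median of all tested genes was -0.11 at the same total and -0.07 after quantile normalization. The 3 genes of phosphate release thus had log2 fold changes from -2.45 to -0.05.

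Enpp1, whose product makes pyrophosphate from extracellular ATP, was close to undetected in the control libraries. It had 4, 2 and 2 reads there and 293, 256 and 224 reads with dexamethasone. These were 3.67, 1.96 and 1.76 normalized counts in the controls and 279, 279 and 260.5 with dexamethasone. Enpp1 rose in all 3 dexamethasone libraries, far outside the range of the controls. The log2 fold change was 6.35 (standard error 0.267, 95% interval 5.80 to 6.90, adjusted p by limma = 9.39e-17). Summed over the libraries of a group and scaled for depth, the ratio was 111 with an exact 95% interval of 56.1 to 258, which covers counting error only. In 99.9% of the tested genes the fold change was lower than that of Enpp1. Its paralog Enpp3, held in another list, was detected in both groups. Enpp3 averaged 73.5 ± 20.3 normalized counts in the controls and 129 ± 18.0 with dexamethasone (SD, n = 3 each). Its log2 fold change of 0.84 (adjusted p by limma = 0.00026) was not called.

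Ank, the membrane protein behind pyrophosphate export, rose from a level that was already high. It had 5940, 6413 and 6223 normalized counts in the control libraries and 50311, 47677 and 49507 with dexamethasone. The groups lay far apart, at 6192 ± 238 and 49165 ± 1350 (SD, n = 3 each), 7.94-fold higher with dexamethasone. The log2 fold change was 2.99 (standard error 0.0370, adjusted p by limma = 2.91e-27). Both members grouped as pyrophosphate supply were thus called higher, while the pyrophosphate-splitting Alpl was called lower.

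The promoters of Alpl, Enpp1 and Ank are shown because these 3 genes make, move and split pyrophosphate and changed in opposite directions. The windows run from 250 bases before to 50 bases after the annotated start, 5′ to 3′ on the strand of the gene, from RefSeq on GRCm38.p6. This is not the GRCm39 build named in the submitters' processing notes, so the windows are not placed on the files' own coordinates. Capitals mark matches on either strand to any of 5 searched motifs.
Alpl, upstream start, chr4:137796335-137796634, minus strand: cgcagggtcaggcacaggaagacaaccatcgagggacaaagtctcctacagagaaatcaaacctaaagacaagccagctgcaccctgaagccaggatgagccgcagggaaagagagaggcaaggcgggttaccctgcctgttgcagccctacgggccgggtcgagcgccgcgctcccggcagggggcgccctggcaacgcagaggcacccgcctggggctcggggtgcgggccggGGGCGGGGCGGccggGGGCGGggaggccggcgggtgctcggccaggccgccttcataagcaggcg
Alpl, downstream start, chr4:137766426-137766725, minus strand: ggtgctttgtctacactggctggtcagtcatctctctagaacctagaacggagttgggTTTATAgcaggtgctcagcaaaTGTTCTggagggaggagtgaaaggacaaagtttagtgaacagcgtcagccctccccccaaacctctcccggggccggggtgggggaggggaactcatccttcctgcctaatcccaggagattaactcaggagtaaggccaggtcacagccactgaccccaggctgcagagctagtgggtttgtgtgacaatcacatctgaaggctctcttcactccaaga
Enpp1, chr10:24712110-24712409, minus strand: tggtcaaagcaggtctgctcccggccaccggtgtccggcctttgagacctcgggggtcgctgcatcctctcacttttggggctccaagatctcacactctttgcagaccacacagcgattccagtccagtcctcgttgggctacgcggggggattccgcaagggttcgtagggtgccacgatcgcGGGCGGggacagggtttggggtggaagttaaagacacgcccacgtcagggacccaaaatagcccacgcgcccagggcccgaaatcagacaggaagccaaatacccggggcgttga
Ank, chr15:27466427-27466726, plus strand: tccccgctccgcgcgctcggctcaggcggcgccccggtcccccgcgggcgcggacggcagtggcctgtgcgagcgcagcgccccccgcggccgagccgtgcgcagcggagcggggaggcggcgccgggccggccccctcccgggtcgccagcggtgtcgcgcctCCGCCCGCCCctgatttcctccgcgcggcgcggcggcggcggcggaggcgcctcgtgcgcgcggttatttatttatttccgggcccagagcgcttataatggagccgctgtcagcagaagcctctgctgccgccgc

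The upstream Alpl window was 70.0% G and C, and its capitals are 3 matches to the GC box GGGCGG, some of them overlapping. The downstream Alpl window, at 54.3% G and C, held 1 match to the TATA box TATAAA and 1 to the hexamer AGAACA of the glucocorticoid receptor, each read from the other strand. The Enpp1 window (61.7% G and C) held 1 GC box and the Ank window (78.0% G and C) held 2 that overlap. Of the 10 genes, 7 matched the promoter table, with 9 windows in all, and Smpd3, Slc20a2 and Mgp had no entry. The full receptor palindrome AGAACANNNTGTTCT was in 0 of the 9 windows and in 0.00913% of all 32851 windows. The single hexamer, which is also part of that palindrome, was in 2 of the 9, those of Alpl and Slc20a1, and in 19.0% of all windows. The GC box was in 7 of the 9 and in 35.7% of all, the TATA box in 2 of the 9 and in 13.6% of all. The Runx heptamer AACCACA was in 1 window, of Slc20a1, and in 5.27% of all. These matches describe letters in a window and were not tested against the expression values.

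SLC20A1 and SLC20A2 are sodium-dependent transporters that take up phosphate, and both genes rose about equally. Slc20a1 had 6048, 5986 and 5912 normalized counts in the control libraries and 18657, 18594 and 18354.5 with dexamethasone. The means were 5982 ± 68.0 and 18535 ± 160 (SD, n = 3 each), 3.10-fold higher, and the log2 fold change was 1.63 (standard error 0.0335, adjusted p by limma = 3.30e-23). In the annotation 13.1% of its exon bases lie opposite the transcripts 9830144P21Rik and Gm4430. Slc20a2 had 3373, 3615 and 3391 normalized counts in the control libraries and 11306.5, 10488 and 10471 with dexamethasone. Its means of 3460 ± 135 and 10755 ± 478 (SD, n = 3 each) were 3.11-fold apart, with a log2 fold change of 1.64 (standard error 0.0398, adjusted p by limma = 1.10e-21). For both transporters the groups lay apart.

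PHEX is a cell-surface peptidase of osteoblasts and osteocytes whose loss causes phosphate wasting. Phex had 160, 202 and 192 normalized counts in the control libraries and 286, 280.1 and 269 with dexamethasone. The groups did not overlap, at 185 ± 22.0 and 278 ± 8.93 (SD, n = 3 each). Its log2 fold change of 0.60 (standard error 0.107, 95% interval 0.38 to 0.82, adjusted p by limma = 2.27e-05) was short of the size needed for a call.

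MGP is a vitamin K-dependent matrix protein that inhibits mineralization, and it was the most abundant of the 10 transcripts in both groups. Mgp had 15231, 16958 and 16549 normalized counts in the control libraries and 146324, 142579 and 153372 with dexamethasone. It rose from 16246 ± 903 to 147425 ± 5480 (SD, n = 3 each), 9.07-fold higher, with a log2 fold change of 3.18 (standard error 0.0430, adjusted p by limma = 1.21e-26). Cartilage and vascular smooth muscle also make MGP, so their markers were read beside it. Of the 8 chondrocyte markers, 3 were tested, and Sox9 and Col2a1 were called higher while Comp was called lower. The chondrocyte list, mostly Sox9 and Col2a1, summed to 5965 to 6426 normalized counts in the control libraries and to 22123 to 24970 with dexamethasone. Acan and Col9a1 were near 0 in both groups. Matn3, Col10a1 and Cnmd averaged 9.88, 10.5 and 4.42 in the controls and 1.89, 4.23 and 1.53 with dexamethasone, too few to be tested. The smooth muscle and pericyte list, in the controls mostly Acta2, summed to 150203 to 158174 there and to 22827 to 24316 with dexamethasone. Of its 6 tested markers Acta2 and Notch3 were called lower and none higher. Cspg4 at 0.43, Rgs5 at 0.72 and Tagln at 0.06 were not called, nor was Myh11 at -0.89. The part of cells with chondrocyte or smooth muscle markers in the rise of Mgp was not tested.

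FAM20C is the Golgi kinase that makes most of the secreted phosphoproteins, osteopontin and DMP1 among them. Fam20c had 1425, 1435 and 1547 normalized counts in the control libraries and 8145, 7142 and 7310 with dexamethasone. The groups lay apart at 1469 ± 68.0 and 7533 ± 537 (SD, n = 3 each), 5.13-fold higher, and the log2 fold change was 2.36 (standard error 0.0474, adjusted p by limma = 2.12e-23). All 3 matrix regulators, Phex, Mgp and Fam20c, thus had values above the controls in every dexamethasone library, and Mgp and Fam20c were called.

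**Figure D2:**
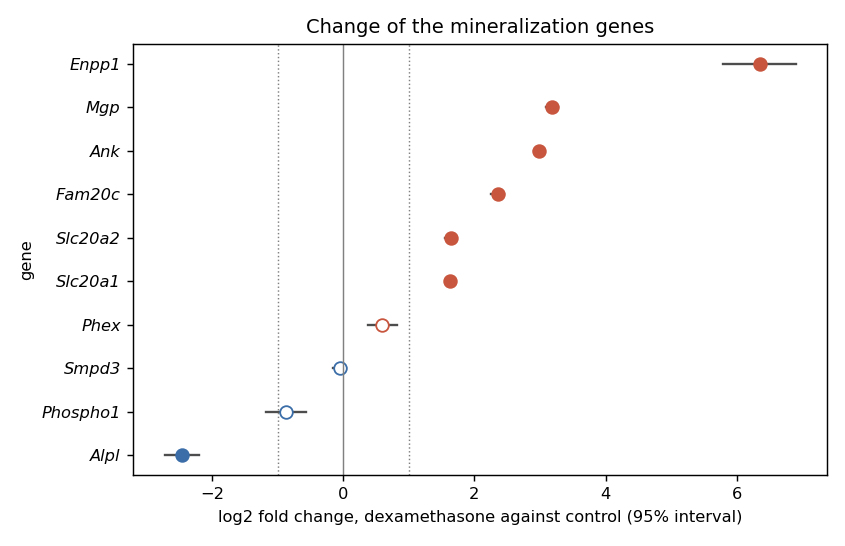
Log2 fold change of each of the 10 genes, dexamethasone minus control, with 95% intervals from limma as bars and the call limits of 1 in either direction as dotted lines. Alpl at -2.45 is the one gene called lower, the bar of Smpd3 crosses 0, and Enpp1 at 6.35 is the highest.

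Ratios of reads between 2 genes of the same library do not depend on the scaling between libraries. They were compared by an exact two-sided permutation test over the 6 libraries, whose smallest possible p is 0.1. The ratio of Alpl to Enpp1 reads was 94.25, 167 and 165 in the control libraries and 0.208, 0.203 and 0.223 with dexamethasone. On the log2 scale the mean moved from 7.10 ± 0.472 to -2.24 ± 0.0706 (SD, n = 3 each), a difference of -9.35 (exact permutation p = 0.1). Alpl reads outnumbered Enpp1 reads in every control library, and Enpp1 reads outnumbered Alpl reads in every dexamethasone library. Because the 2 transcripts differ in length, the order within a library is stated for reads and not for molecules.

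Alpl to Ank stood at 0.0583, 0.0510 and 0.0466 in the control libraries and at 0.00116, 0.00119 and 0.00117 with dexamethasone, a log2 difference of -5.46 (exact permutation p = 0.1). For Phospho1 to Enpp1 the values were 38.5, 93.0 and 92.5 against 0.30, 0.379 and 0.290, a log2 difference of -7.75 (exact permutation p = 0.1), with the limit on the Phospho1 count given above. Mgp to Alpl was 44.0, 51.9 and 57.1 in the control libraries and 2515, 2515 and 2638 with dexamethasone, a log2 difference of 5.66 (exact permutation p = 0.1). These groups did not overlap, so each p is the smallest that the design allows. By contrast, Slc20a1 to Slc20a2 was 1.79, 1.66 and 1.74 against 1.65, 1.77 and 1.75, and the groups overlapped. Its log2 ratio was 0.79 ± 0.0582 and 0.79 ± 0.0556 (SD, n = 3 each), a difference of -0.0046 (exact permutation p = 0.9). With 5 ratios compared, no p could fall under 0.05 before or after adjustment.

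**Figure D3:**
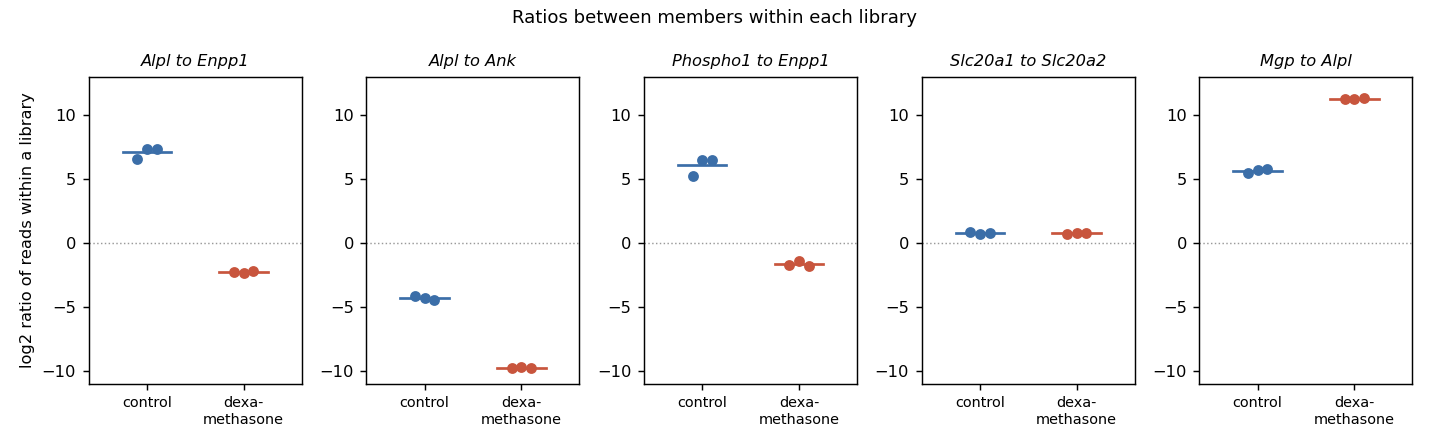
Log2 ratio of reads between 2 genes within each library, 1 panel per pair, with points for the 3 control and 3 dexamethasone libraries and short lines for group means. The ratio of Alpl to Enpp1 lies above 0 in the controls and below 0 with dexamethasone, and the ratio of Slc20a1 to Slc20a2 overlaps between groups.

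Levels of different genes were set side by side as RPKM, the reads divided by the exon length in kilobases and by the total of the library. In the control libraries the order was Mgp at 176 ± 6.56 (SD, n = 3), Ank at 22.1, Slc20a1 at 13.8, Slc20a2 at 7.16, Smpd3 at 5.31 and Fam20c at 2.87. Below these came Phospho1 at 1.03 ± 0.108 and Alpl at 1.02 ± 0.10 (SD, n = 3 each), whose libraries overlapped, then Phex at 0.377 and Enpp1 at 0.0031. With dexamethasone Mgp stood at 1476 ± 48.8 (SD, n = 3), Ank at 162, Slc20a1 at 39.5, Slc20a2 at 20.6, Fam20c at 13.6 and Smpd3 at 4.72. Phex at 0.526 ± 0.0180 and Phospho1 at 0.519 ± 0.101 (SD, n = 3 each) overlapped, and Enpp1 at 0.316 and Alpl at 0.170 came last. All other neighbours in both orders were apart in every library. Fam20c was below Smpd3 in the controls and above it with dexamethasone, and Alpl went from above Phex and Enpp1 to below both.

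Other genes of pyrophosphate and nucleotide handling did not move in a single direction. Of 12 listed genes 10 were tested, with 2 called higher, 3 called lower and a median log2 fold change of 0.07. The sign of this median was not stable, since it was -0.26 with no filter on low counts, 0.40 for genes averaging 100 or more, -0.04 at the same total and -0.03 after quantile normalization. Ppa1, a cytosolic pyrophosphatase, rose from 2965 ± 64.9 to 6134 ± 143 normalized counts (SD, n = 3 each), a log2 fold change of 1.05 (adjusted p by limma = 3.57e-18) that was 0.93 at the same total and 0.87 after quantile normalization. Ada, the adenosine deaminase, rose by 1.48 (adjusted p by limma = 1.07e-11). Nt5e, the ecto-nucleotidase CD73 that turns AMP into adenosine and phosphate, fell from 3384 ± 26.4 to 1292 ± 13.5 normalized counts, a log2 fold change of -1.39 (adjusted p by limma = 9.63e-20). Entpd3, which breaks down extracellular ATP, fell by 3.32 on the log2 scale (adjusted p by limma = 2.02e-16). For Entpd1, of the same family, the controls held only 11, 16 and 25 reads and the dexamethasone libraries 6, 4 and 5. Its log2 fold change of -1.37 (adjusted p by limma = 0.00676) was called, but the call was lost at -0.98 with a pseudocount of 5 and without control replicate 3 (-1.12, adjusted p by limma = 0.0692). The ATP-gated channel P2rx7 had a log2 fold change of -0.54 (adjusted p by limma = 1.43e-09) and was not called.

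In the phosphocholine and sphingomyelin list, 1 of 12 tested genes was called, against a median of 0.23. It was Sgms2, a sphingomyelin synthase, at 1.08 on the log2 scale (adjusted p by limma = 1.39e-18), which was 0.97 at the same total and 0.91 after quantile normalization. The abundant choline transporter Slc44a1 was at 0.60, the acid ceramidase Asah1 at -0.23, and the phosphatidylcholine synthesis gene Pcyt1a at 0.04, a value that turned to -0.08 at the same total and -0.17 after quantile normalization. None of these 3 was called.

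In the list of other phosphate transport and homeostasis genes, which leaves out Slc20a1 and Slc20a2, no gene was called higher. Of 11 listed genes 9 were in the table and 6 were tested, and 3 were called lower, with a median log2 fold change of -0.61. The median was -0.17 over genes averaging 100 or more normalized counts and -0.82 with no filter. Pth1r, the parathyroid hormone receptor, fell from 6005 ± 147 to 1310 ± 46.0 normalized counts (SD, n = 3 each), a log2 fold change of -2.20 (adjusted p by limma = 6.33e-24). Vdr, the vitamin D receptor, fell by 1.53 on the log2 scale (adjusted p by limma = 1.68e-19). For Galnt3, which glycosylates FGF23, the controls held 26, 30 and 24 reads and the dexamethasone libraries 9, 19 and 7. Its log2 fold change of -1.04 (adjusted p by limma = 0.0127) was just past the limit, and 8 of 16 alternatives ended the call. It was -0.83 with a pseudocount of 5, -0.94 after quantile normalization, -0.98 with edgeR and -0.99 with DESeq2, and the adjusted p was 0.0513 for limma without a trend. Leaving out control replicate 2, dexamethasone replicate 1 or dexamethasone replicate 3 gave -0.92, -0.86 and -0.82. The phosphate exporter Xpr1 was at 0.41, the mitochondrial phosphate carrier Slc25a3 at -0.17 and Fgfr1 at -0.12, and these 3 were not called. Slc34a1 and Fgf23 were not in the table, and Slc34a2, Slc34a3 and Kl had too few reads to be tested.

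Alkaline phosphatase carries zinc, and 5 zinc transporters were listed as its suppliers. Slc39a14, an importer, rose from 6611 ± 76.0 to 29024 ± 744 normalized counts (SD, n = 3 each), a log2 fold change of 2.13 (adjusted p by limma = 2.86e-25), and was the 1 gene called. The secretory-pathway transporters Slc30a5 and Slc30a7, which load alkaline phosphatase, were at -0.09 and 0.12, and Slc30a7 turned to -0.08 after quantile normalization. Slc30a6 at -0.29 and Slc39a13 at -0.62 were lower but not called (adjusted p by limma = 9.11e-06 and 2.25e-13). The median of the list was -0.09.

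Gamma-carboxylation, the vitamin K-dependent step that activates MGP, was covered by 5 genes with a median log2 fold change of -0.62. Nqo1, a quinone reductase, rose by 1.24 (adjusted p by limma = 3.24e-20) and Gas6, itself a vitamin K-dependent protein, fell by 1.09 on the log2 scale (adjusted p by limma = 4.63e-18). The carboxylase gene Ggcx was at -0.62 (adjusted p by limma = 6.23e-13) and was not called. The vitamin K epoxide reductase gene Vkorc1 was at -0.86 and its paralog Vkorc1l1 at 0.91 (adjusted p by limma = 3.12e-05 and 4.50e-17), on opposite sides of 0 and both short of a call.

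Matrix vesicle and calcium-binding genes rose more often than they fell, with 4 of 7 called higher, none called lower and a median of 1.02. The annexins Anxa1 and Anxa5 were at 1.24 and 1.02 (adjusted p by limma = 4.02e-19 and 7.11e-18), S100a4 at 1.31 and the calcium pump Atp2b1 at 1.14 (adjusted p by limma = 1.92e-10 and 7.90e-20). Anxa5 was under the limit at 0.91 with the same total, at 0.97 after quantile normalization and at 0.997 with TMM scaling. Atp2b1 was at 0.96 after quantile normalization. Anxa2 at 0.92 was not called.

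Among the FAM20 family and secreted phosphoproteins, 7 of 8 genes were tested, 3 were called higher and 1 lower, with a median of 0.08. The median was 0.76 with no filter, 1.46 for genes averaging 100 or more, -0.03 at the same total and -0.10 after quantile normalization. Dmp1, a phosphoprotein of osteocytes, rose from 38.5 ± 2.66 to 5639 ± 326 normalized counts (SD, n = 3 each), 146-fold, with a log2 fold change of 7.16 (adjusted p by limma = 2.12e-28). Spp1, which encodes osteopontin, a mineral-binding inhibitor, rose from 33595 ± 988 to 1279670 ± 29570 normalized counts (SD, n = 3 each), 38.1-fold, with a log2 fold change of 5.25 (adjusted p by limma = 1.43e-29). Fetub rose by 2.84 (adjusted p by limma = 1.27e-13), while the bone sialoprotein gene Ibsp fell by 1.27 on the log2 scale (adjusted p by limma = 1.48e-17). Fam20b was at 0.08 and turned to -0.03 at the same total and -0.10 after quantile normalization. Fam20a was at -0.90 and was not called, unlike its paralog Fam20c.

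**Figure D4:**
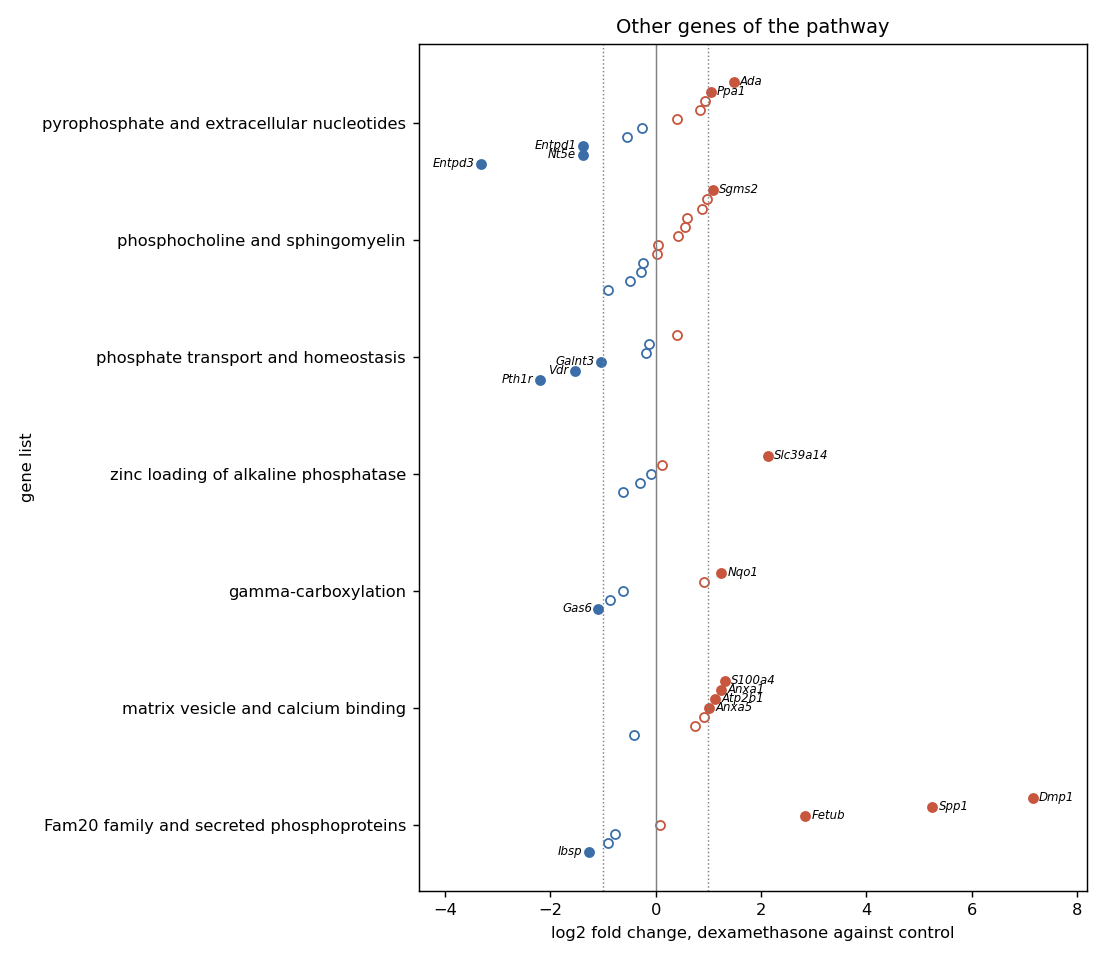
Log2 fold changes, dexamethasone minus control, of the tested genes in 7 other lists of the pathway, with filled points for called genes, open points for genes not called, red above and blue below 0, and dotted lines at the call limits. Dmp1 at 7.16 and Spp1 at 5.25 lie farthest to the right. The 3 called genes of the phosphate transport and homeostasis list, which leaves out Slc20a1 and Slc20a2, lie to the left.

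Markers of other cell types moved in both directions beside these changes. The hematopoietic list summed to 92.3 to 129 normalized counts in the control libraries and to 775 to 823 with dexamethasone, with Cd53 and Itgb2 called higher, whereas Ptprc, its defining gene, averaged 2.48 and 4.71. Laptm5 and Coro1a were called lower at few reads, with means of 19.2 and 20.4 in the controls and 6.41 and 6.79 with dexamethasone. No endothelial marker of the 4 tested was called in either direction, and that list, mostly Kdr, summed to 377 to 413 and to 455 to 487. Kdr at 0.25 and Pecam1 at 0.74 were higher (adjusted p by limma = 0.00812 and 0.0419). Tek at -0.75 and Egfl7 at 0.12 overlapped between groups, and Cdh5 and Tie1 had too few reads to be tested. By protein staining, the study reports more Osteocalcin-positive cells with CD31 (Pecam1), VE-cadherin (Cdh5) or Flk1 (Kdr). The osteoclast list, mostly Ctsk, summed to 12866 to 13485 and to 8206 to 8621. Other osteoclast genes went against that sum at few reads. For Acp5 the controls held 0, 0 and 0 reads and the dexamethasone libraries 7, 26 and 17, and for Ocstamp these were 0, 6 and 1 against 20, 6 and 14, both too few to be tested. Atp6v0d2 was called higher, at 5.14 and 33.0. Erythroid sums were 30.3 to 36.9 and 21.0 to 49.1, and adipocyte sums 9.79 to 10.5 and 17.4 to 22.9. Of the fibroblast and tendon markers 4 were tested, Pdgfra was called higher, and Dcn and Scx were called lower. Of the 3 tested macrophage markers Cd68 was called higher and Lyz2 lower. Whether any of these moved the values of the 10 genes was not tested.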

How the data were processed

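Osteocalcin-positive bone cells of 3 control and 3 dexamethasone samples were sequenced with a stranded mRNA kit. The authors aligned and counted reads with STAR 2.7.10a and divided them by DESeq2 1.36.0 size factors, and these deposited values are a signal, the normalized count, on build GRCm39 per the labels. The annotation release and strand setting are not given in the sources used here. Of 29616 identifiers, 28087 had a symbol in GENCODE M21, and 0 columns were left out. Each value was a whole multiple of 1 read (tolerance 0.001).

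Genes averaging 10 or more normalized counts were tested with limma 3.58.1 in R 4.3.3, with a mean-variance trend, a pseudocount of 1 and Benjamini-Hochberg adjustment, after tests on simulated data. Alternatives on recovered reads used edgeR 4.0.16 and DESeq2 1.42.0, and others were different pseudocounts, filters and scalings, a replicate block and leaving out each library. Counts of 0 allow for at most 3 reads, in terms of counting error only.

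The members and lists were chosen with earlier results of these data known. Named were all members, and of each list the 3 most abundant genes and the 2 called genes with the largest change. Some other listed genes were named after their values were seen. Promoter windows came from RefSeq, and exon lengths and overlaps from GENCODE M21, so gene coordinates on the files' build are not given.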

Additional observations from a re-analysis of the deposited data

How the results depend on the processing

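The calls of Alpl, Enpp1, Ank, Slc20a1, Slc20a2, Mgp and Fam20c held under all 17 alternatives. Their log2 fold changes ranged from -2.57 to -2.36 for Alpl, 5.23 to 6.79 for Enpp1 and 3.07 to 3.21 for Mgp. On adjusted p alone 12645 genes were called, 7 members were called higher and 2 lower, and 26 genes of the other lists were called higher and 23 lower, against 12 and 8. Under the other settings these list counts ran from 8 to 13 higher and from 6 to 10 lower. With genes averaging 100 or more 2170 genes were called, from fewer genes tested. Over fits without 1 library, members called lower ranged from 1 to 2 and Phospho1 from -1.01 to -0.77. The log2 ratio of Slc20a1 to Slc20a2 changed sign, from -0.036 to 0.027. Sign changes also came for Pcyt1a at the same total (-0.0773) and after quantile normalization (-0.167), for Fam20b (-0.0339 and -0.102) and for Slc30a7 after quantile normalization (-0.0805). The cause was not tested.

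No pairing by replicate number was seen, since deviations of same-numbered samples correlated at -0.156, -0.233 and -0.046. Those of differently numbered samples correlated at -0.031 to 0.187. With 3 libraries per group these values are tied to each other, so the check cannot exclude pairing. Under the replicate block the number called was 3897 genes, 6 members higher and 1 lower, and the ratios kept their differences, with an exact sign-flip p of 0.25, the smallest it can give, for all but Slc20a1 to Slc20a2 (1.0).

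At 2 to 4 reads per control library, the size of the Enpp1 change is limited by counting error.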

Other observations

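Among 12020 other tested genes averaging 100 or more normalized counts, the genes with the profile nearest to Alpl over the 6 libraries, by Euclidean distance of mean-centred log2 values, were Pik3r3 (0.180), Sort1 (0.180) and Synm (0.184). Their log2 fold changes were -2.45, -2.41 and -2.51. Pik3r3 averaged 4319 normalized counts in the controls and 787 with dexamethasone, Sort1 768 and 143, and Synm 2770 and 487. Nearest to Enpp1 were Fam19a5 (0.355), Hp (0.452) and Il18rap (0.559), with log2 fold changes of 6.53, 6.38 and 6.52. Fam19a5 averaged 11.7 normalized counts in the controls and 1132 with dexamethasone, Hp 12.3 and 1098, and Il18rap 163 and 15130. Enpp1, Fam19a5 and Hp reached a mean of 100 only through the dexamethasone libraries. With replicates this close, the distance depends mostly on the change between groups. Like fold changes among the nearest genes therefore follow from the measure and show no further likeness.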
